A study of Bos taurus with 6 samples.

Results

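The centromere-proximal ends of the bovine autosomes were examined as the 1000 bp windows of a fixed grid that start within the first 5 Mb of chromosomes 1 to 29. A window was kept when at least 2 Creole and at least 2 Spanish libraries each had 3 or more covered CpG cytosines and 10 or more read calls in it. A read call is a single reading of a cytosine as methylated or unmethylated. Of 26327 windows in these intervals with any covered cytosine, 4019 met the rule, which is 6.78% of the 59286 windows that met it on all autosomes. They were compared with 41177 windows of the chromosome interiors, over 5 Mb from either end, and with 14090 windows of the last 5 Mb. All 6 libraries passed in 1059 of the proximal windows.

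The series asks where DNA methylation differs between tropically adapted Creole cattle and Spanish cattle, whose breeds stand for the Iberian stock they descend from. Blood of 6 adult males gave 1 library each. Creole 1 was Sanmartinero and Creole 2 and Creole 3 were Costeno con Cuernos, while Spanish 1 was Retinta, Spanish 2 Asturiana de los Valles and Spanish 3 Lidia breed. Reduced representation bisulfite sequencing reads fragments cut by the enzyme MspI at CCGG sites, and so favours CpG-rich sequence. A separate DNA extraction kit was used for each group, so kit and group cannot be told apart.

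Bovine autosomes are acrocentric: the centromere lies at one end, which the assembly places at the low coordinates, and the chromosome consists of a single long arm. The centromere itself is built of satellite DNA, which is largely absent from assembled sequence, so the first megabases are the pericentromeric edge and not the centromere. In vertebrates most CpG cytosines are methylated, CpG islands at gene starts are largely unmethylated, and repeats near centromeres are usually heavily methylated in somatic cells. DNA from whole blood averages over its cell types.

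Autosomal calls numbered 38633007 to 80245850 per library and covered 669467 to 3391903 cytosines. The proximal intervals are 5.77% of the covered length of the autosomes and held 7.61% to 8.34% of the calls. Median calls per window ran from 126 to 302 over the libraries in proximal windows and from 114 to 296 in interior windows. Median calls per cytosine ran from 13 to 40.2 in proximal and from 13 to 42 in interior windows.

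Proximal windows were more methylated than interior windows in every animal, and less methylated than the windows of the distal ends. Creole 1 read 60.8% in proximal and 53.8% in interior windows, Creole 2 read 60.5% and 53.1%, and Creole 3 read 60.9% and 52.8%. Spanish 1 read 61.7% in proximal and 52.8% in interior windows, Spanish 2 read 61.7% and 54.0%, and Spanish 3 read 60.2% and 52.4%. The lowest proximal value, of Spanish 3, stood above the highest interior value, of Spanish 2. Over all 6 libraries the proximal mean was 61.0% ± 0.609 and the interior mean 53.2% ± 0.622, a difference of 7.81 points ± 0.642 (SD, n = 6). An exact two-sided sign-flip test over the 6 libraries gave p = 0.03125, the smallest that 6 libraries allow (Benjamini-Hochberg adjusted p = 0.03125 over 5 tests). When all 6 differences have the same sign, this p-value follows from the signs alone, whatever their size or spread. The test treats the animals as replicates. It says nothing about other stretches of the genome, since all animals were read over the same intervals. Over cytosines covered in all 6 libraries, which leave 374 proximal and 3684 interior windows, the difference was 3.63 points (66.1% and 62.5%). Of these 374 windows, 174 lay in the first megabase, at a mean of 71.6%. Megabases 2, 4 and 5 read 58.0%, 56.4% and 61.5% in that setting, all below the interior, and megabase 3 read 68.7%. The excess there was thus not shared by the whole 5 Mb.

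**Figure D1:**
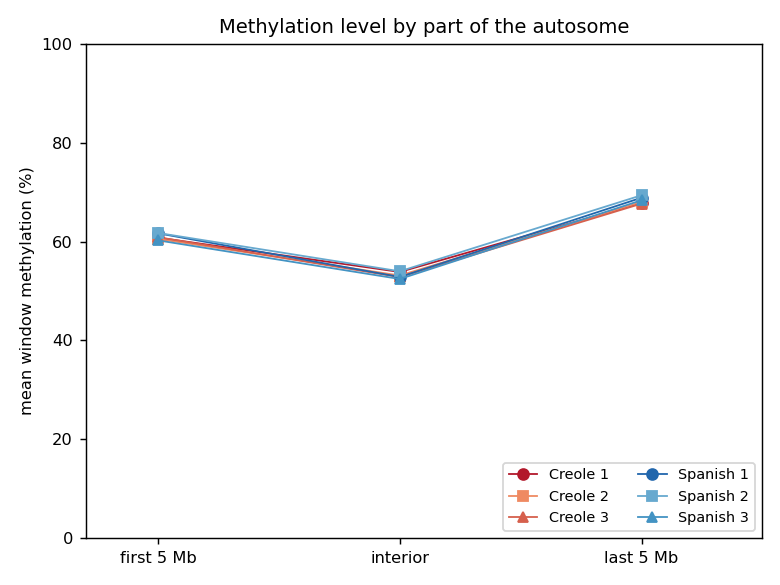
Mean methylation of the windows (percent, y axis) in the first 5 Mb, the interior and the last 5 Mb of the autosomes, 1 line for each of the 6 libraries. Every line is higher in the first 5 Mb (60.2% to 61.7%) than in the interior (52.4% to 54.0%) and highest in the last 5 Mb (67.7% to 69.4%).

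Windows with little methylation were fewer near the centromere-proximal end. Strongly methylated ones were more frequent with each window weighted equally, but hardly so with each chromosome weighted equally. Windows under 20% methylation made up 19.7% ± 1.59 of proximal and 28.9% ± 2.33 of interior windows (SD, n = 6). The proximal share was lower in each library, by 9.22 points ± 0.875 (exact sign-flip test, p = 0.03125, adjusted p = 0.03125). Windows over 80% made up 36.3% ± 2.78 of proximal and 29.4% ± 2.20 of interior windows, and those from 20 to 80% made up 44.0% ± 4.2 and 41.7% ± 4.33. With every chromosome weighted equally, the shares over 80% were 30.2% and 29.4%, and Creole 1 had the opposite order (24.4% and 25.5%). Without chromosomes 14, 24 and 25, left out after the data were seen, they were 31.1% and 29.4%. Over cytosines covered in all 6 libraries, the difference in the share under 20% was -5.90 points.

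Among the 1059 proximal windows that passed in every library, 150 were under 20% in all 6 animals (14.2%), against 2353 of 10470 interior windows (22.5%). Another 88 proximal windows were over 80% in all 6 animals (8.31%), against 598 interior windows (5.71%). The remaining windows lay between these classes in at least 1 animal.

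**Figure D2:**
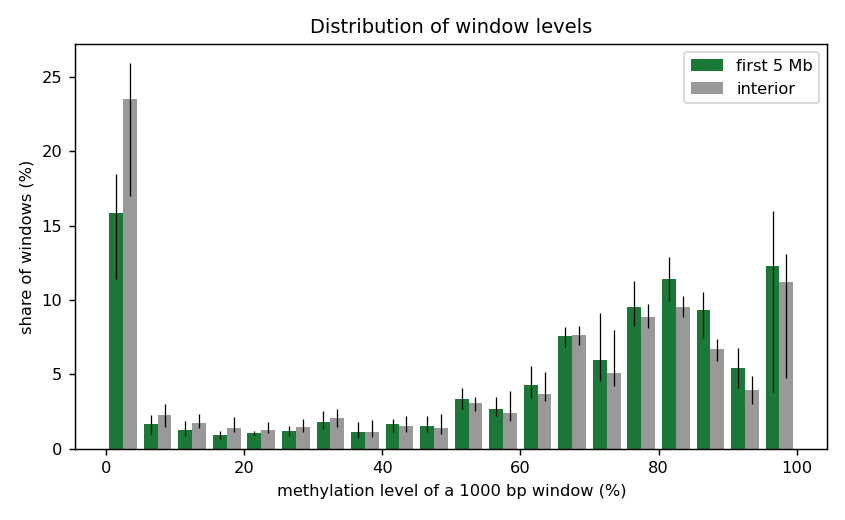
Share of windows (percent, y axis) by methylation level in steps of 5 points (x axis) in the first 5 Mb and in the interior; bars are means over the 6 libraries and lines span the lowest to the highest library. The interior has the taller bars at the unmethylated end, where 28.9% of its windows lie under 20% against 19.7% in the first 5 Mb.

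The mean gap between proximal and interior windows grew with the number of covered cytosines in a window, a measure of both CpG density and library coverage. Proximal windows held 26.0 covered cytosines in Creole 1 and 11.3 in Creole 3, so a class is not the same density in each library. With 3 to 5 covered cytosines, proximal windows read 65.9% ± 2.09 and interior windows 64.5% ± 1.88 (SD, n = 6), and Creole 1 had the opposite order, with 62.7% and 65.6%. With 6 to 10 cytosines the values were 66.0% ± 1.40 in proximal and 59.4% ± 3.47 in interior windows, higher in proximal windows in 6 of 6 libraries. With 11 to 20 cytosines they were 59.2% ± 4.74 and 48.3% ± 7.0, and with 21 to 40 cytosines 52.1% ± 5.34 and 39.5% ± 6.44. In windows with 41 or more cytosines, proximal levels averaged 47.2% ± 11.6 and interior levels 32.3% ± 13.3, a difference of 14.9 points ± 3.47. The order of the gaps differed between libraries. In Spanish 2 the gap was widest at 21 to 40 cytosines (16.6 points, against 13.2 at 41 or more), and in Creole 3 at 11 to 20 (11.9 points, against 11.8 at 41 or more). No test was made within these density classes.

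**Figure D3:**
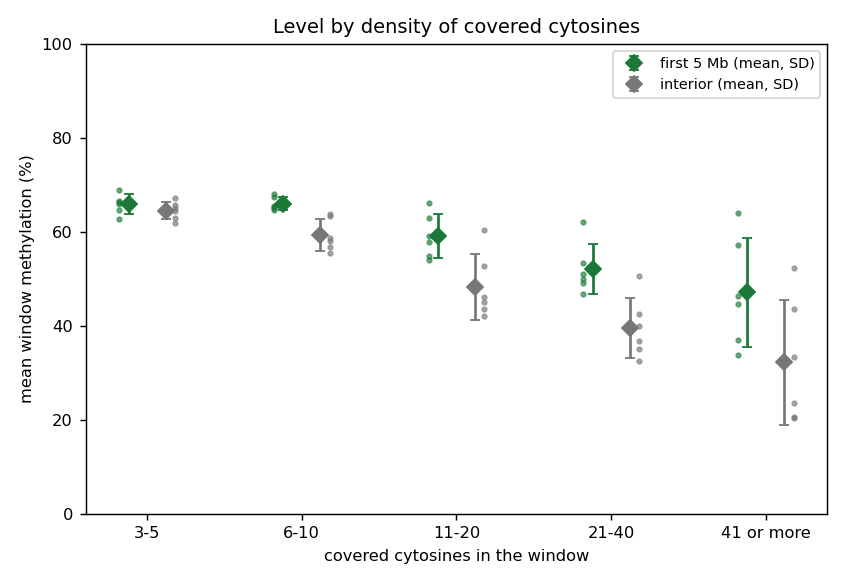
Mean window methylation (percent, y axis) by the number of covered cytosines in the window (x axis) for the first 5 Mb and the interior; diamonds and bars are the mean and SD over 6 libraries, small points the libraries. Mean levels are lower in windows with more than 10 covered cytosines in both parts, and the mean gap widens from 1.36 points at 3 to 5 cytosines to 14.9 points at 41 or more.

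Proximal windows held 15.1 ± 5.60 covered cytosines and interior windows 14.4 ± 5.16 (SD, n = 6). Within a library the proximal count was higher by 0.663 ± 0.461 (6 of 6 libraries, exact sign-flip test, p = 0.03125, adjusted p = 0.03125). Without chromosome 14, left out after the data were seen, this difference was 0.139 (adjusted p = 0.438). It was 0.162 with every chromosome weighted equally, and 0.279 without the first megabase, also chosen after the data were seen. No other chromosome was left out alone. With interior windows reweighted to the proximal numbers of covered cytosines, the difference in level was 8.39 points.

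On average over windows, both ends of the autosomes were more methylated than the interior, and the distal end more so. The distal level was not tested against the interior. The last 5 Mb read 68.4% ± 0.657 against 61.0% ± 0.609 in the first 5 Mb, so that proximal windows were lower by 7.38 points ± 0.473 (SD, n = 6; exact sign-flip test, p = 0.03125, adjusted p = 0.03125). The order of proximal and distal levels held in 6 of 6 libraries. By chromosome, the distal mean was above the proximal mean on 25 of 29. On chromosome 18 the distal mean (52.5%) was below both the interior (54.8%) and the proximal mean (57.4%). Windows under 20% made up 19.7% ± 1.59 of proximal and 12.5% ± 1.52 of distal windows. Windows also lay more densely in the distal ends, at 27.7 per Mb in the first 5 Mb and 97.2 per Mb in the last 5 Mb, against 18.5 per Mb in the interior. Over cytosines covered in all 6 libraries, the proximal level was 2.03 points below the distal level (66.1% and 68.2%).

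Along the first 5 Mb, with each window weighted equally, the first megabase had the highest level. Its 995 windows read 65.7% ± 1.42 (SD, n = 6), with single libraries from 63.8% (Creole 3) to 67.9% (Spanish 2). The second megabase had the lowest mean, 57.6% ± 1.08 over 862 windows, and no library overlapped between these megabases. Megabases 3, 4 and 5 read 58.5% ± 0.911, 61.5% ± 0.843 and 61.2% ± 0.698. Windows under 20% made up 11.7% ± 1.24 of the first megabase and 24.1% ± 1.84 of the second.

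The 247 windows of the first 100 kb, on 22 chromosomes, had the highest level of any interval examined along the first 5 Mb. Creole 1 read 69.5% there, Creole 2 read 68.8% and Creole 3 read 67.2%. Spanish 1 read 72.2%, Spanish 2 read 72.6% and Spanish 3 read 72.7%. All 3 Spanish libraries were above all 3 Creole libraries, whereas the groups overlapped in every other interval examined along the first 5 Mb. Only 1.72% ± 0.725 of these windows were under 20%, against 10.9% ± 2.79 from 100 to 250 kb (SD, n = 6). Chromosome 19 gave 47 of the 247 windows, and the mean over the other chromosomes was 70.1%. Windows over 80% were not more frequent there (29.8%, against 36.3% in the whole 5 Mb), so most of these windows had intermediate levels. The first 100 kb was singled out after its values were seen and was not tested.

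A straight line through the means of the 5 megabases fell by 0.497 points per Mb ± 0.189 (SD, n = 6; exact sign-flip test, p = 0.03125, adjusted p = 0.03125). The slope is no stable description of the interval: it was 0.895 points per Mb (adjusted p = 0.0391) with every chromosome weighted equally, -0.0151 (adjusted p = 0.812) in 2000 bp windows and -0.357 (adjusted p = 0.0938) with a minimum of 5 calls. With chromosomes weighted equally, the first megabase read 60.9% ± 1.86, the second 51.7% ± 2.3 and the fifth 61.9% ± 0.910 (SD, n = 6). The first megabase was then below the fifth, so it did not stand apart under that weighting, while the second stayed lowest. Over cytosines covered in all 6 libraries the fourth megabase was lowest (56.4%, against 58.0% in the second). In windows that passed in all 6 libraries, megabases 2 to 5 lay close together, at 55.4%, 56.5%, 56.2% and 55.5%. At the limit of 5 Mb, the last 500 kb inside it read 57.5% ± 1.43 (284 windows) and the 500 kb beyond it 62.9% ± 1.46 (329 windows, SD, n = 6). The level beyond the limit was higher in 6 of 6 libraries, with no overlap (55.6% to 59.8% inside, 61.4% to 65.0% beyond), and the excess over the interior thus did not end at 5 Mb.

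**Figure D4:**
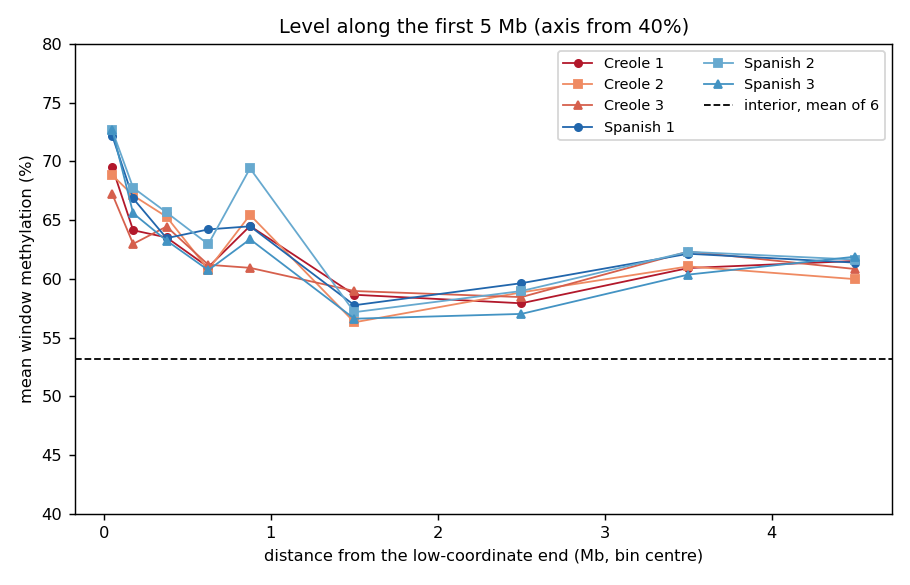
Mean window methylation (percent, y axis, from 40%) by distance from the low-coordinate end (Mb, centre of the bin), 1 line for each library, with 5 bins in the first megabase and 1 in each later megabase; the dashed line is the interior mean of 53.2%. Levels start at 67.2% to 72.7% in the first 100 kb and read 56.3% to 59.0% in the second megabase, which is the lowest bin except in Creole 1 and Creole 3, where the third megabase is lower.

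The 29 chromosomes contributed unequally. Chromosome 14 held 747 of the proximal windows, chromosome 25 held 722 and chromosome 24 held 297, together 43.9% of all, while the median chromosome held 74 and chromosome 6 held 13. On chromosome 14 the proximal interval had 149 windows per Mb against 11.7 per Mb in its interior, and on chromosome 25 it had 144 against 40.6. Most chromosomes showed the opposite: on 10 of 29 the proximal interval had more windows per Mb than the interior. Without chromosomes 14, 24 and 25, left out after the data were seen, the difference between proximal and interior level was 5.49 points (58.5% ± 0.666 and 53.0% ± 0.612, SD, n = 6).

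Levels of the single proximal intervals ran from 41.7% to 70.7%, a wider range than the 44.6% to 64.5% of the interiors. Proximal intervals held 13 to 747 windows each and interiors 552 to 2851, and whether the fewer windows widen the range was not tested. The proximal mean was above the interior mean of the same chromosome on 23 of 29 chromosomes, with a median difference of 4.69 points, and this held in all 6 libraries on 17 of them. On chromosomes 1 and 5 the proximal interval was lower in all 6 libraries.

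The 3 chromosomes with the highest proximal level were 19, 29 and 24. Chromosome 19 read 70.7% ± 1.52 over 61 windows, against 52.2% ± 1.14 in its interior (SD, n = 6). Of its proximal windows, 52 lay in the first megabase. Chromosome 29 read 69.4% ± 3.77 over 60 windows against 54.8% ± 0.842 in its interior, and chromosome 24 read 69.4% ± 1.36 over 297 windows against 55.2% ± 1.89. In each of these 3, the lowest library in the proximal interval was above the highest library in the interior.

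The 3 lowest were chromosomes 5, 26 and 1. Chromosome 5 read 41.7% ± 4.01 over 21 windows, against 53.2% ± 0.949 in its interior (SD, n = 6). Chromosome 26 read 46.2% ± 4.54 over 21 windows against 49.9% ± 0.997 in its interior, with 1 of 6 libraries in the opposite order. Chromosome 1 read 47.9% ± 3.26 over 100 windows against 53.2% ± 1.12. On chromosome 1, Creole 1 read 49.5%, Creole 2 read 52.4% and Creole 3 read 46.6%, against 48.4%, 47.9% and 42.5% in Spanish 1, Spanish 2 and Spanish 3. The median SD over libraries of a chromosome's level was 2.40 points for proximal and 0.909 points for interior levels. This SD does not cover how far a level from few windows depends on which windows were read.

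**Figure D5:**
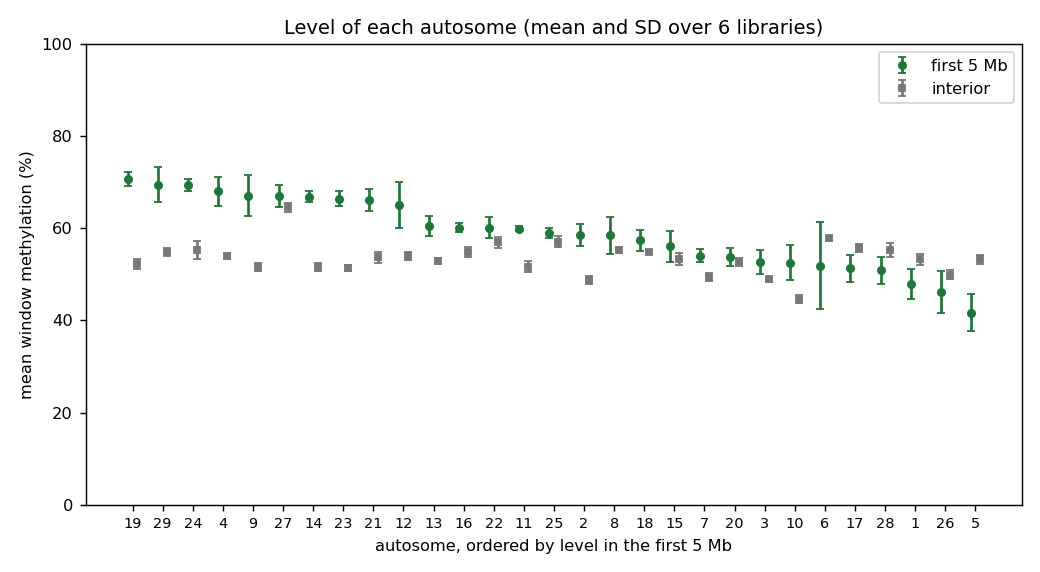
Mean window methylation (percent, y axis) of each autosome (x axis, ordered by its level in the first 5 Mb), in the first 5 Mb and in the interior; points and bars are the mean and SD over 6 libraries. Proximal levels spread from 41.7% to 70.7% around interior levels that stay between 44.6% and 64.5%, and 23 of 29 chromosomes have the higher level in the first 5 Mb.

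Reads were concentrated in few proximal windows. The 10 deepest windows of a library took 26.0% to 27.4% of its proximal calls. A single window on chromosome 28 (UMD3.1, 1894001 to 1895000) held 9.11% of all proximal calls, with 187306 to 439491 calls per library over 122 to 178 cytosines. It read 81.5%, 84.3% and 85.4% in Creole 1, Creole 2 and Creole 3, against 82.8%, 84.1% and 79.8% in Spanish 1, Spanish 2 and Spanish 3, so the groups overlapped. The window before it (1893001 to 1894000) read 86.7% ± 2.60 (SD, n = 6). Windows on chromosome 14 (633001 to 634000), chromosome 22 (1802001 to 1803000) and chromosome 21 (2018001 to 2019000) followed, at 71.9% ± 1.64, 77.9% ± 1.08 and 80.4% ± 4.30. No library read under 69.6% in any of the 5, though the windows on chromosomes 14 and 22 stayed under 80% in every animal. These windows were named for their depth. Each window weighs equally in the levels above, so they count there as 5 of 4019.

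Between the Creole and the Spanish animals, proximal methylation was close. The Creole mean was 60.7% ± 0.185 and the Spanish mean 61.2% ± 0.848 (SD, n = 3 each), a difference of -0.483 points that did not pass an exact two-sided permutation test (p = 0.40, adjusted p = 0.40 over 2 tests; 3 against 3 cannot go below 0.10). Spanish 3 was lowest of all at 60.2%. The excess over the interior was 7.48 points ± 0.576 in Creole and 8.14 points ± 0.610 in Spanish libraries (SD, n = 3 each), and this difference of -0.66 points did not pass either (exact permutation test, p = 0.30, adjusted p = 0.40). With every cytosine weighted equally the first difference was 1.84 points, and with cytosines covered in all 6 libraries the second was 0.0439 points. Kit and lane coincide with group, and a different mix of blood cells and a different level within them cannot be told apart in DNA of whole blood.

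No single proximal window passed the test between groups. edgeR's quasi-likelihood test, fitted over all 59286 autosomal windows, called 0 of 4019 proximal windows at an adjusted p of 0.05, with a background of 0.0% over all windows. At an unadjusted p under 0.05 there were 134 proximal windows (3.33%), against 3.83% of all windows. edgeR's likelihood ratio test, which allows less for spread between animals, called 76 proximal windows (1.89%), against 2.08% of all. Of these, 48 were higher in Creole (1.19%, background 1.18%) and 28 lower (0.697%, background 0.907%), and limma called 0. Each of these shares lay near or below its background.

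Groups without overlap were as frequent as elsewhere. Among the libraries that passed in a window, all Creole values were above all Spanish values in 363 proximal windows (9.03%, background 9.28%) and below them in 461 (11.5%, background 11.5%). In windows read in all 6 libraries the counts were 59 of 1059 higher in Creole (5.57%, background 5.43%) and 80 lower (7.55%, background 6.37%). Group means over 25 points apart were found in 371 proximal windows (9.23%, background 9.76%), with the Creole mean above the Spanish one in 186 and below it in 185. The median gap between group means was 6.68 points in proximal and 6.35 points in interior windows, and the median SD within groups 8.40 and 7.88 points.

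By chromosome, the groups overlapped in the proximal level of all but 2 chromosomes. On chromosome 4 the Creole libraries read 66.8%, 64.3% and 64.7% against 70.3%, 71.4% and 70.4% in the Spanish libraries, all lower in Creole (60 windows). On chromosome 3 they read 53.9%, 55.7% and 54.0% against 51.2%, 53.1% and 48.3%, all higher in Creole (84 windows). Over all proximal, interior and distal chromosome levels, 2.3% of 87 did not overlap with Creole higher and 11.5% with Creole lower, and 9 of the 10 lower ones were distal.

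The 5 proximal windows of smallest p with more methylation in Creole were mostly unmethylated in Spanish animals. All had an adjusted p of 1 in edgeR's quasi-likelihood test. The first window lay on chromosome 23 (3171001 to 3172000, UMD3.1), where Creole libraries read 17.1%, 25% and 58.5%, and Spanish libraries 0.0541%, 0% and 0%. The groups did not overlap, and the Creole values, from 943, 40 and 3551 calls, were far apart from each other. Creole libraries covered 22, 4 and 15 cytosines in this window and Spanish libraries 11, 18 and 20, so the libraries were not all read at the same cytosines. On chromosome 13 (788001 to 789000), Creole libraries read 31.3%, 50.6% and 26.2%, against 0% in Spanish 1 (452 calls) and 0% in Spanish 2 (161 calls); Spanish 3 did not pass there. On chromosome 28 (3520001 to 3521000), Creole libraries read 24%, 40.3% and 20.8%, against 3.17%, 1.97% and 4.30% in Spanish libraries.

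Smaller gaps made up the rest of that list. On chromosome 25 (787001 to 788000), Creole libraries read 8.21%, 5.89% and 6.25%, and Spanish libraries 0%, 0.244% and 0%. The Creole values came from 1011, 2241 and only 16 calls. On chromosome 2 (4779001 to 4780000), Creole libraries read 3.34%, 1.55% and 0%, against 0.0237%, 0% and 0% in Spanish libraries, so the groups overlapped at 0%. 

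In 4 of the 5 windows named for less methylation in Creole, the Spanish libraries that passed read 99.7% to 100%, and all 5 windows had an adjusted p of 1 in edgeR's quasi-likelihood test. In a chromosome 28 window (2651001 to 2652000), Creole libraries read 69.0%, 73.0% and 75%, the last from 12 calls. Spanish 2 read 99.7% and Spanish 3 read 100%, while Spanish 1 did not pass there. On chromosome 25 (2051001 to 2052000), Creole libraries read 53.4%, 57.1% and 71.3%, and Spanish 1 and Spanish 2 both 100%, with Spanish 3 not passing. Creole 2 and Spanish 1 had 21 calls each in that window. Spanish 1 and Spanish 2 covered only 3 and 4 cytosines there, against 11, 9 and 9 in the Creole libraries, so the gap is not one at the same cytosines throughout. The third (2964001 to 2965000 on chromosome 25) read 92.3%, 87.8% and 87.5% in Creole and 100% in all 3 Spanish libraries, with 13 calls in Creole 1.

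Another window of chromosome 25 (4827001 to 4828000) was deeply read, with 12284 to 135328 calls per library. Creole libraries read 74.4%, 71.8% and 73.0%, against 84.2%, 80.1% and 79.1% in Spanish libraries, a gap of -8.07 points with close values within each group. On chromosome 18 (1773001 to 1774000), Creole libraries read 77.2%, 83.3% and 65.6%, against 100% in both Spanish 1 and Spanish 2, Spanish 3 not passing. The Creole 2 value there came from 12 calls. Creole libraries covered 24, 12 and 10 cytosines in this window, against 7 in Spanish 1 and 3 in Spanish 2. In these 5 windows the groups did not overlap, which the choice by smallest p favours. None of the 10 windows held a region of the authors' deposited table or lay within a gene range listed in it.

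The authors' deposited table of regions that differ between the groups lists 316 regions on the autosomes, and 21 of them (6.65%) lay in the first 5 Mb, on 13 chromosomes. This is 5.23 regions per 1000 proximal windows, against 5.29 in the interior and 5.33 on all autosomes. Per the authors' deposited table, methylation was higher in Creole in 15 of the 21 and lower in 6, against 164 higher and 54 lower in the interior. Of the 21 regions in the authors' deposited table, 4 lay in a CpG island core and 2 in a shore, against 73 and 8 of 218 interior regions. They were 52 to 136 bp long with 4 to 21 CpGs per the authors' deposited table. The regions were chosen as different on these same libraries, so their direction is no independent evidence.

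Replication in these 21 regions was thin when they were recomputed from the coverage files. In 16 a single Creole library had 10 or more calls, and in 11 of these it was Creole 1. In 8 a single Spanish library had them, none was measured in all 6 libraries, and 3 were measured in 2 or more libraries of each group. The recomputed sign matched the listed one in 21 of 21, and 16 regions lay in a window counted above.

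SH3R1_BOVIN is a UniProt entry name, that of SH3RF1, known in human and mouse as a ubiquitin ligase and a scaffold of stress kinase signalling. Its region at an intron-exon boundary (chromosome 8, 1034332 to 1034409) read 87.7%, 100% and 100% in Creole 1, Creole 2 and Creole 3, from 407, 18 and 326 calls. Spanish 1 and Spanish 2 both read 0%, from 10 and 340 calls, so the groups did not overlap. LOC100140960 had a region with 21 CpGs (chromosome 16, 2680276 to 2680369) that read 31.3%, 0% and 0% in Creole libraries, against 88.9% in Spanish 1 and 91.6% in Spanish 3. Again the groups did not overlap, with 12 calls in Creole 3. The region assigned to F1MJZ1_BOVIN, chosen for its replication, lay on chromosome 18 (1478545 to 1478610). It read 80.2% in Creole 1 and 99.7% in Creole 3, against 75% in Spanish 2 and 0.926% in Spanish 3. The Spanish libraries there were further apart than the groups.

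KCNK9 encodes a potassium channel of the background leak type and is imprinted in human and mouse, where the maternal copy is expressed. The authors' deposited table places a CpG island region at -2706 bp from its start (chromosome 14, 4641575 to 4641626), with 9% in Creole and 63% in Spanish animals. Recomputed, Creole 3 read 0% (95% Wilson interval 0 to 0.480%, 796 calls). Spanish 1 read 22.8% (15.7 to 31.9%, 101 calls) and Spanish 2 read 62.4% (54.8 to 69.5%, 165 calls). Creole 1 and Creole 2 had no calls there, so a single Creole animal stands against 2 Spanish animals that differ from each other.

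Other named regions rest on a single Creole or a single Spanish library. SFT2D2, a membrane protein of vesicle transport, had an intronic region (chromosome 3, 345133 to 345223) at 85.1% in Creole 2 (Wilson interval 83.2 to 86.8%, 1483 calls) and 0% in Spanish 3 (0 to 0.425%, 900 calls). SSBP4, a single-stranded DNA binding protein, had an intronic region (chromosome 7, 4676334 to 4676409) at 80% in Creole 2 (72.3 to 86.0%, 130 calls). Spanish 1 read 1.38% there (945 calls) and Spanish 2 read 0% (0 to 27.8%, 10 calls). LMF1_BOVIN names a factor that lipases need to mature, and its intronic region (chromosome 25, 750609 to 750674) read 60% in Creole 1 and 0% in Creole 2. In Spanish 1 the level was 99.2% (98.6 to 99.5%, from 1364 calls), and the Creole animals were far apart, with 15 and 612 calls.

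On chromosome 24 (1893774 to 1893902), a region without a listed gene had 30% in Creole and 79% in Spanish animals in the authors' deposited table. The recomputed values were 88.4% in Creole 1 (Wilson interval 85.9 to 90.5%, 733 calls) and 90.7% in Spanish 3 (89.0 to 92.2%, 1242 calls). Creole 2 had only 5 calls there, too few to be counted, and the remaining libraries had none. The listed values are group means, whereas each recomputed value pools the calls of a single library. The recomputed gap was smaller, but the different measures do not allow a direct comparison with the listed gap. This region was chosen after its values were seen. The Wilson intervals treat calls as independent and cover counting error only, since reads copied by PCR are not separate molecules.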

How the data were processed

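Blood DNA of 3 Creole and 3 Spanish bulls was profiled by reduced representation bisulfite sequencing. Per the submitters' processing notes, Trim Galore, Bismark, methylKit and genome build UMD3.1 were used, while their settings, and whether PCR duplicates were removed, are not stated there. The deposited coverage files give counts of methylated and unmethylated calls and the percent methylated at each covered cytosine. The authors' deposited table of regions gives group means as a fraction (printed as percent), the number of CpGs as a count, and an area score that was not used.

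A library's level in a window is its methylated calls over all its calls, and every window weighs equally. Levels were compared within libraries by exact two-sided sign-flip tests and between groups by exact permutation tests, with Benjamini-Hochberg adjustment. Windows were tested with edgeR 4.0.16 (quasi-likelihood test on both counts with library effects, all autosomal windows, adjusted p under 0.05), with its likelihood ratio test and limma 3.58.1 as alternatives; a library that did not pass in a window entered with no calls. The scripts were tested on simulated data. Chromosome ends are the highest covered coordinates. Windows were named by the 5 smallest p in each direction, chromosomes by the 3 highest and 3 lowest proximal levels, and deposited regions by a gene symbol or entry name. Members and lists were chosen with earlier results of these data known.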

Additional observations from a re-analysis of the deposited data

How the results depend on the processing

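The proximal excess over the interior kept its sign in 23 of 23 alternatives (3.63 to 10.9 points), the deficit to the distal ends in 21 of 21 (-10.4 to -2.03) and the lower share under 20% in 23 of 23 (-11.6 to -5.90). Leaving out 1 library gave 7.60 to 7.98, -7.50 to -7.23 and -9.52 to -9.03 points, where 5 libraries cannot go below p = 0.0625 in the exact sign-flip test. The excess of covered cytosines was 0.162 with chromosomes weighted equally and 0.00504 for the first 10 Mb. In the 10 Mb alternative the interior still began at 5 Mb, so windows between 5 and 10 Mb counted in both sets. This applies to every result of that alternative. In alternatives added after the data were seen, the excess of covered cytosines was 0.139 without chromosome 14, 0.279 without the first Mb and -0.108 without chromosomes 14, 24 and 25. The slope was -0.357 with a minimum of 5 calls, -0.0151 in 2000 bp windows and 0.895 with chromosomes weighted equally. The Creole minus Spanish level was 1.84 with every cytosine weighted equally, and the difference of the excesses 0.0439 over cytosines covered in all 6 libraries. The likelihood ratio test of edgeR called 76 windows where the quasi-likelihood test called 0. Apart from the constructions named, the cause was not tested. Cytosines that end repair can fill in read 7.76% to 18.8% on the fillable strand and 69.9% to 72.9% on the other, and without them, also added after the data were seen, the excess was 7.88 points. Creole animals could not be paired with Spanish animals, because the replicate numbers follow accession order and pair no animals. Shallow windows, down to 10 calls, limit single values.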
